A study of Mus musculus with 16 samples.

Results

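The gasdermins of the Gsdmc cluster, Gsdmd and the ubiquitin ligase gene Trim40 were followed in the cecal epithelium of gnotobiotic mice through all probe sets annotated to Gsdmc, Gsdmc2, Gsdmc3, Gsdmc4, Gsdmd or Trim40 on the MOE430 2.0 GeneChip, a whole-genome mouse array. There were 5 such probe sets of 45101 in the table. Of the 6 genes, 5 had a probe set, and no probe set was annotated to Gsdmc3. For Gsdmc2 the table held 1454883_at alone and shared 1419591_at with Gsdmc and 1430641_at with Gsdmc4, so that 2 of the 5 probe sets could not be assigned to 1 gene. Gsdmd was represented by 1428767_at and Trim40 by 1457253_at. Gsdmc2 and Trim40 were chosen by their difference between the Bl and GF states in these same GeneChips, and the other genes as their relatives. That comparison is therefore given as values, with nothing drawn from its test.

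Young adult male mice of the inbred NMRI strain were compared in 4 states: colonized for 10 days with Bacteroides thetaiotaomicron (Bt), with Bifidobacterium longum (Bl) or with both (Bt/Bl), and germ-free (GF). Both species are members of the human gut microbiota, and all mice ate the same diet rich in plant polysaccharides. Epithelium was taken from the cecum by laser capture microdissection, RNA of 4 animals was pooled per state, and each pool was amplified and hybridized on 2 GeneChips. The 2 values of a state thus come from 1 pool of RNA, and every SD and p-value below covers technical spread and compares pools, not mice. The values are MAS5 signals, a linear scale of brightness on which the authors scaled each GeneChip to the same mean.

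Gasdermins are proteins held inactive by their own C-terminal part. A protease cut releases the N-terminal part, which forms pores in membranes and can end in the lytic cell death called pyroptosis. Gsdmd is the gasdermin cut by the inflammatory caspases. In the mouse, the Gsdmc genes are most active in the intestinal epithelium, where the cytokines interleukin-4 and interleukin-13 raise them through Stat6. Trim40 belongs to the tripartite motif family of E3 ubiquitin ligases and is expressed mainly in the gut, and human TRIM40 is known to restrain NF-kappaB signaling. In the GRCm38.p6 assembly, Gsdmc, Gsdmc2, Gsdmc3 and Gsdmc4 lie in this order on chromosome 15 with the Gsdmc-like genes Gsdmcl1 and Gsdmcl2 between them. Gsdmd lies elsewhere on chromosome 15, between Zc3h3 and Mroh6. Trim40 is on chromosome 17 between Trim10 and Trim31, with Trim15 beyond Trim10.

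The GF pool stood apart from the colonized pools in more than colonization. Fabp6, the ileal bile acid-binding protein, had signals of 1179.3 to 1798.3 on the 6 colonized GeneChips, against 68028.8 and 95107.5 on the GF GeneChips. Of 11 small intestinal enterocyte markers tested, 2 passed as lower than GF in Bt (Fabp6 and Apoa1) and 3 in each of the other colonized pools (with Apob). The rest did not move together: the list's median log2 fold change against GF was -0.08 (Bt), -0.55 (Bl) and -0.59 (Bt/Bl), and Fabp1, Mttp and Lct had values of 3.21, 1.66 and -0.08 in Bt, none past the threshold. Of 9 colonocyte markers tested, Aqp8 alone passed, as higher than GF in each colonized pool, and the list's median was 0.11 (Bt), 0.41 (Bl) and -0.02 (Bt/Bl). Among 6 plasma cell markers, the antibody gene Igha read 12170.7 to 49896.2 on the colonized GeneChips, against 95693.6 and 113963.6 on the GF GeneChips, and passed as lower in all 3 comparisons with GF and as higher in Bt/Bl than in Bt (1.71 ± 0.23, adjusted p = 0.00834). Jchain of the same list passed as lower than GF in Bt alone (-3.0 ± 0.41, adjusted p = 0.00345 in limma). Y-linked Eif2s3y read 3200.9 to 5656.8 on the colonized GeneChips, against 71.3 and 614.4 on the GF GeneChips. The other Y-linked genes overlapped: Kdm5d read 145.2 to 1159.5 on the colonized GeneChips, against 178.5 and 300.7 on the GF GeneChips, and Uty read 57.0 to 2033.2, against 831.5 and 1112.8. Xist, the transcript of the inactive X chromosome, read 3752.9 to 11175.7 on the colonized GeneChips, against 17156.6 and 22761.6 on the GF GeneChips, although all mice were described as male. The 3′ over 5′ signal ratio of the Gapdh controls, which grows as RNA or its amplified copies shorten, was 8.9 to 17.6 on the colonized GeneChips, against 5.7 and 7.3 on the GF GeneChips. That of the beta-actin controls ran the other way, with 21.4 to 36.3 on the colonized GeneChips, against 36.9 and 38.8 on the GF GeneChips. The captured tissue read as epithelium, with a median log2 signal of 15.19 to 15.88 over 8 epithelial markers on all GeneChips. No marker of any cell type list was at the floor on all GeneChips, leukocyte, fibroblast and smooth muscle markers included. The floor therefore does not tell epithelium from other cell types here. The part of these differences in any result against GF was not tested. The comparisons among colonized states use the GF pool only in the shared estimate of the spread.

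Gsdmc2 signal was highest in the Bl pool, intermediate in the Bt/Bl pool, and close together in the Bt and GF pools. Its own probe set, 1454883_at, read 69192.0 and 47233.3 on the Bt GeneChips. It read 177230.1 and 128630.2 on the Bl GeneChips. It read 101718.5 and 89330.3 on the Bt/Bl GeneChips, against 53739.2 and 50192.2 on the GF GeneChips. Both Bl values lay above both Bt/Bl values, which in turn lay above all 4 Bt and GF values. The share of all probe sets with this order was not computed. Since the Bl and GF values were used to choose Gsdmc2, the order is a description. The Bt values overlapped the GF values, 1 lying above and 1 below both of them. The means were 58213 ± 15527 for Bt, 152930 ± 34365 for Bl and 95524 ± 8760 for Bt/Bl, against 51966 ± 2508 for GF (SD, n = 2 amplifications each).

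The probe set shared by Gsdmc2 and Gsdmc4, 1430641_at, followed a similar order with a narrower range. It read 42969.9 and 51553.6 on the Bt GeneChips and 73360.1 and 98921.2 on the Bl GeneChips. It read 82396.0 and 74472.0 on the Bt/Bl GeneChips, against 49843.7 and 59199.0 on the GF GeneChips. All 4 values from pools that held Bl were above all 4 values from pools that did not, and the Bl and Bt/Bl values overlapped, as did the Bt and GF values. Taken pair by pair, such separations were seen in 20.1% to 23.9% of all probe sets tested. The share with all of them together was not computed. Bl and GF values were used to choose Gsdmc2, so this separation is a description.

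The probe set shared by Gsdmc2 and Gsdmc, 1419591_at, was less reproducible. Its Bt values were 35597.4 and 41655.9 and its Bl values 51492.6 and 71796.3. Its Bt/Bl values were 95089.1 and 39901.7, against 31692.7 and 38382.1 in GF. The highest of all 8 values and a value within the Bt range came from the same Bt/Bl pool, and the coefficient of variation in that state was 57.8%. The order of Bl and Bt/Bl on this probe set therefore rests on 1 GeneChip: leaving out Bt/Bl GeneChip 9132 turned the log2 difference of Bt/Bl from Bl to -0.61, where it was 0.02 with all 8 GeneChips. The ratio of the highest to the lowest GeneChip was 3.75 for the Gsdmc2 probe set, 2.30 for the one shared with Gsdmc4 and 3.0 for the one shared with Gsdmc.

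Trim40 was the one gene of the group whose signal was above both GF values on all 6 colonized GeneChips. It read 22735.3 and 13421.3 on the Bt GeneChips and 34239.8 and 22712.5 on the Bl GeneChips. It read 25096.9 and 24797.7 on the Bt/Bl GeneChips, against 6650.8 and 10007.3 on the GF GeneChips. The separation from GF was shared by 4.40% of the 24865 probe sets tested and was seen in 1 of the 5 probe sets described here. It is a description, because the GF values were used to choose Trim40. Among the colonized states the order was Bl, Bt/Bl, Bt by mean (28476 ± 8151, 24947 ± 212 and 18078 ± 6586, against 8329 ± 2373 in GF; SD, n = 2 amplifications each). The Bl values overlapped those of both other colonized states, while both Bt/Bl values lay above both Bt values.

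The stretch of 250 bases before the start of Trim40 is shown because Trim40 was the one gene of the group above both GF values on all 6 colonized GeneChips. The GF values were used to choose it, so this is a description. Capitals mark the only match found among the motifs searched, GATAA, the core bound by GATA factors (RefSeq, GRCm38.p6, chr17:36890126-36890375, minus strand, given 5′ to 3′ in the direction of transcription).
Trim40 promoter: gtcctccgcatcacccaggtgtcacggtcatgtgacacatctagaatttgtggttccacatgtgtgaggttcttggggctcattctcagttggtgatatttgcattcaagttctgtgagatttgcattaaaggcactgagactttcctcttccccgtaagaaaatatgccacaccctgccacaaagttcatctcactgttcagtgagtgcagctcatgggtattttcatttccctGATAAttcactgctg
The match begins 15 bases before the gene start, and GATAA occurs on either strand in 22.6% of 32851 promoter windows of this length. The other letters searched on both strands had no match here: TTCNNNGAA, bound by STAT factors (7.02% of windows), CAAAGTCCA, bound by HNF4 (0.383%), and TATAAA, the TATA box (12.4%). These motifs can overlap one another. A match is a description of the letters, and nothing about a factor follows from its presence or absence. The RefSeq table used here matched promoters of Trim40 and Gsdmc3 among the 6 genes.

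Gsdmd differed little between the state means and strongly between the amplifications of the Bt pool. Its Bt values were 1165.5 and 4216.1 and its Bl values 2546.3 and 1687.8. Its Bt/Bl values were 2084.8 and 2184.1, against 1263.4 and 1979.9 in GF. The lowest and the highest of the 8 values were the 2 from the Bt pool, with a coefficient of variation of 80.2%, and the Bt and Bl ranges both overlapped the GF range. The Bt/Bl values lay above both GF values by a small margin.

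**Figure D1:**
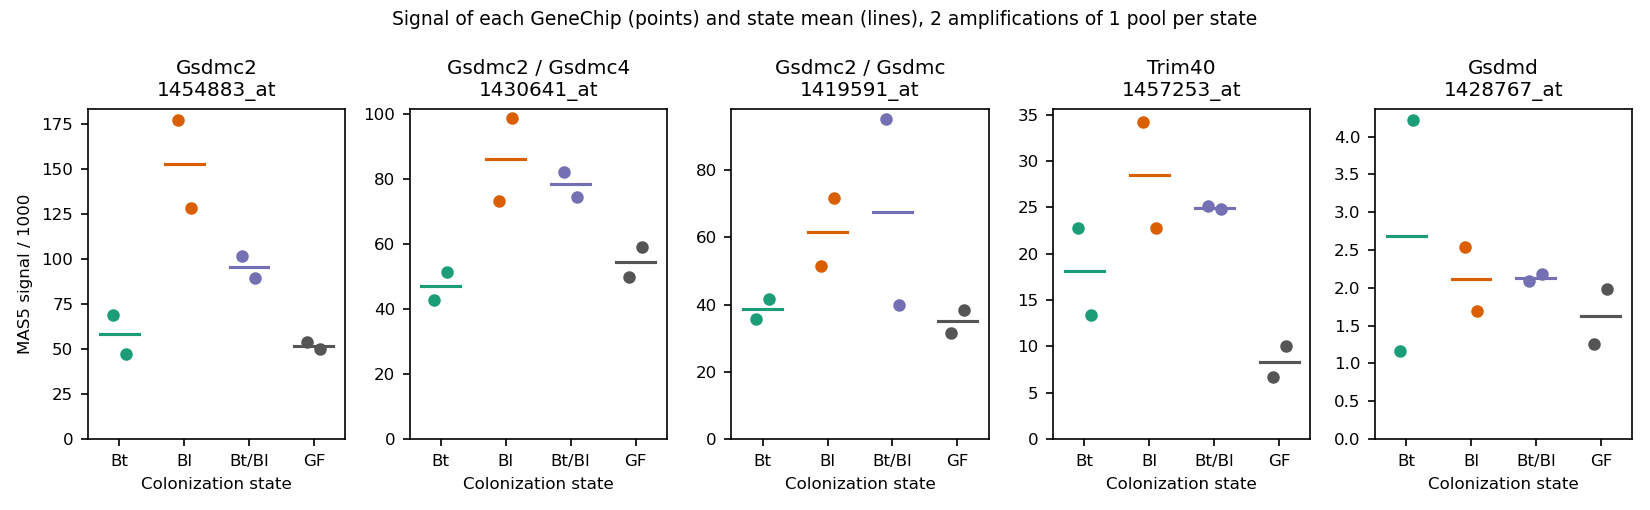
MAS5 signal (linear axis from 0, scaled separately for each probe set) in the Bt, Bl, Bt/Bl and GF states for the 5 probe sets; each point is 1 GeneChip and each line the mean of 2. The Bl points of Gsdmc2 sit at 177230.1 and 128630.2, above all others, and the GF points of Trim40 sit at 6650.8 and 10007.3, below all others.

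Set against GF in the Bl pool, the comparison by which Gsdmc2 and Trim40 were chosen, the log2 fold changes were 1.77 ± 0.29 for Trim40, 1.54 ± 0.25 for Gsdmc2, 0.80 ± 0.32 for the probe set shared with Gsdmc, 0.65 ± 0.23 for the one shared with Gsdmc4 and 0.39 ± 0.59 for Gsdmd (± SE from limma, here and below). Both Bl values were above both GF values in 4 of the 5 probe sets, all but Gsdmd, where 23.9% of all probe sets tested were so, and 0.137% of them passed the adjusted threshold of 0.05 in this comparison in either direction. Nothing is read from these counts, since this comparison chose the genes.

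In the Bt/Bl pool, Trim40 was 3.06-fold higher than in the GF pool (log2 fold change 1.61 ± 0.29, 95% interval 0.99 to 2.23, adjusted p = 0.0310 in limma). It was 1 of 5 probe sets to pass, where 0.197% of all probe sets tested passed in either direction. The GF pool of this comparison is the pool used to choose Trim40. The call rests on all GeneChips together: leaving out any 1 of the 8 gave adjusted p-values of 0.108 to 0.579, with log2 fold changes of 1.32 to 1.91. It also ended under 5 of the other settings tried. Gsdmc2 differed by 0.88 ± 0.25 (95% interval 0.34 to 1.41, adjusted p = 0.356), the probe set shared with Gsdmc by 0.82 ± 0.32 (adjusted p = 0.557), the one shared with Gsdmc4 by 0.53 ± 0.23 (adjusted p = 0.624) and Gsdmd by 0.43 ± 0.59 (adjusted p = 0.942). Both Bt/Bl values lay above both GF values in all 5 probe sets, against 21.2% of all probe sets tested. The median over the 5 probe sets was 0.82, and that over all probe sets tested was 0.01. The same GF pool was used to choose Gsdmc2, to which 3 of the 5 probe sets are annotated. The count and the median over the 5 are therefore a description.

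In the Bt pool, none of the 5 probe sets passed against GF (0.169% of all probe sets tested passed). Of the 5, 1, Trim40, had an unadjusted p under 0.05, as 9.49% of all probe sets tested had. Trim40 differed by 1.10 ± 0.29 on the log2 scale (95% interval 0.48 to 1.72, adjusted p = 0.212). The GF pool of this comparison was also used to choose Trim40 and Gsdmc2, so their differences from it are a description. Gsdmc2 differed by 0.14 ± 0.25, with an interval of -0.39 to 0.67 that leaves out a doubling (adjusted p = 0.910). The probe set shared with Gsdmc also differed by 0.14 ± 0.32 (adjusted p = 0.935), the one shared with Gsdmc4 by -0.21 ± 0.23 (adjusted p = 0.831) and Gsdmd by 0.49 ± 0.59 (adjusted p = 0.849). Trim40 was the only 1 of the 5 with both Bt values above both GF values, against 21.6% of all probe sets tested. Without Bt GeneChip 9443 the Gsdmd difference turned to -0.44, and without Bt GeneChip 9130 that of Gsdmc2 turned to -0.14.

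The comparison of Bt/Bl with Bt asked what the second species added, and shares no GeneChip with the one that chose the genes. No probe set of the group passed in limma (0.0483% of all probe sets tested did), and 2, Gsdmc2 and the one shared with Gsdmc4, had an unadjusted p under 0.05, as 10.5% of all probe sets tested had. Gsdmc2 differed by 0.74 ± 0.25 on the log2 scale (95% interval 0.21 to 1.27, adjusted p = 0.310). For the one shared with Gsdmc4 the difference was 0.73 ± 0.23 (95% interval 0.25 to 1.22, adjusted p = 0.283), and the one shared with Gsdmc by 0.68 ± 0.32 (95% interval -0.01 to 1.36, adjusted p = 0.487). Trim40 differed by 0.51 ± 0.29 (95% interval -0.11 to 1.13, adjusted p = 0.582) and Gsdmd by -0.05 ± 0.59 (95% interval -1.31 to 1.20, adjusted p = 0.990). Both Bt/Bl values lay above both Bt values for Gsdmc2, the probe set shared with Gsdmc4 and Trim40, 3 of 5, where 20.7% of all probe sets tested did. The median over the 5 probe sets was 0.68, beside -0.01 over all probe sets tested. Of the 5, 3 are annotated to Gsdmc2, so they do not stand for 5 separate genes.

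Between the 2 states with 1 species each, Gsdmc2 was 2.64-fold higher in Bl than in Bt (log2 fold change 1.40 ± 0.25, 95% interval 0.87 to 1.93), which did not pass the adjusted threshold (adjusted p = 0.0851). The Bl pool of this comparison is the one used to choose the gene. With 1 GeneChip left out, the log2 fold change of Gsdmc2 ranged from 1.13 to 1.68. Among the rest, the probe set shared with Gsdmc4 differed by 0.86 ± 0.23 (adjusted p = 0.166), Trim40 by 0.67 ± 0.29 (adjusted p = 0.368), the probe set shared with Gsdmc by 0.66 ± 0.32 (adjusted p = 0.445) and Gsdmd by -0.10 ± 0.59 (adjusted p = 0.970). None of the 5 passed in limma, where 0.0442% of all probe sets tested did, and 3 had an unadjusted p under 0.05 (11.9% of all probe sets tested). All 3 Gsdmc probe sets had both Bl values above both Bt values, as 20.1% of all probe sets tested had.

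Bt/Bl set against Bl gave no call in limma among the 5 probe sets (0.0563% of all probe sets tested passed). Of the 5, 1, Gsdmc2, had an unadjusted p under 0.05, as 11.8% of all probe sets tested had. Gsdmc2 differed by -0.66 ± 0.25 (95% interval -1.19 to -0.13, adjusted p = 0.303), with both Bt/Bl values below both Bl values. The Bl pool of this comparison was used to choose Gsdmc2 and Trim40. That choice favors high Bl values, so nothing is drawn from a lower Bt/Bl value of these genes. Trim40 differed by -0.16 ± 0.29 (95% interval -0.78 to 0.46, adjusted p = 0.864) and the probe set shared with Gsdmc4 by -0.12 ± 0.23 (adjusted p = 0.870). The differences were 0.02 ± 0.32 for the probe set shared with Gsdmc (adjusted p = 0.992) and 0.04 ± 0.59 for Gsdmd (adjusted p = 0.989). In none of the 5 did both Bt/Bl values lie above both Bl values, against 18.9% of all probe sets tested.

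**Figure D2:**
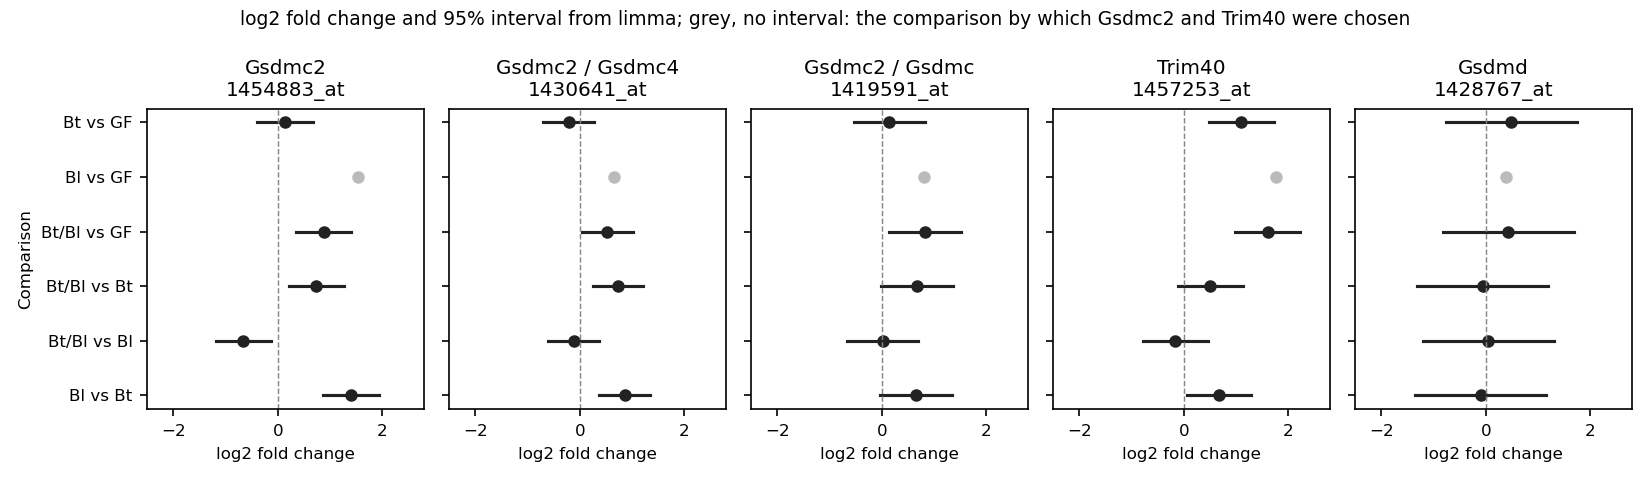
The log2 fold change (horizontal axis, first-named state over the second) with its 95% interval from limma for the 5 probe sets in the 6 comparisons; grey points without an interval mark Bl against GF, by which Gsdmc2 and Trim40 were chosen. The intervals of Trim40 lie above 0 against GF in Bt (0.48 to 1.72) and in Bt/Bl (0.99 to 2.23), and those of Gsdmd include 0 in all 5 comparisons with an interval. The GF pool behind these Trim40 intervals was used to choose Trim40.

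Markers of cell types that the epithelium can hold were read beside the members. Among the 10 colonocyte markers, Aqp8 and Saa1 were lower on both GF GeneChips than on all colonized ones, as Trim40 was, while Slc26a3, Cdkn2b and Guca2a had log2 fold changes below 0 against GF in both Bt (-0.44, -0.17 and -0.12) and Bt/Bl (-0.19, -0.31 and -0.79), none past the threshold. Aqp8, a water channel of colonocytes, read 33809.9 to 49984.8 on the colonized GeneChips, against 10169.2 and 14516.9 on the GF GeneChips. Saa1, an acute-phase protein made by the gut epithelium, read 533027 to 656287 on the colonized GeneChips, against 288217 and 296403 on the GF GeneChips. The summed signal of the 10 colonocyte markers was 1842219 to 1992231 for Bt, 2330518 to 2435779 for Bl and 1814552 to 1914206 for Bt/Bl, against 1644237 to 1805931 in GF. A smaller share of a cell type and less RNA per cell cannot be told apart in pooled epithelium. The median log2 signal of the colonocyte markers was 16.48 to 16.68 in Bl, 16.17 to 16.18 in Bt/Bl and 16.36 to 16.45 in Bt, against 15.69 to 15.77 in GF. That of 8 goblet cell markers was 15.73 to 16.12 in Bl, 15.11 to 15.29 in Bt/Bl and 15.73 to 15.80 in Bt, against 14.91 to 15.01 in GF. Among the goblet cell markers, Muc2 passed as higher than GF in Bt (1.55 ± 0.24, adjusted p = 0.00787 in limma) and Clca1 in Bl. The goblet cell list's median log2 fold change against GF was 0.38 (Bt), 0.35 (Bl) and -0.14 (Bt/Bl). Plasma cell markers, 6 in number, had medians of 12.51 to 12.58 for Bt, 13.21 to 13.27 for Bl and 13.79 to 13.89 for Bt/Bl, against 14.17 to 14.45 for GF. Tuft cell markers, 7 in number, had medians of 8.96 to 10.18 on the colonized GeneChips, against 9.60 and 9.61 on the GF GeneChips. The part of these cell types in the Gsdmc2 and Trim40 values was not tested.

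**Figure D3:**
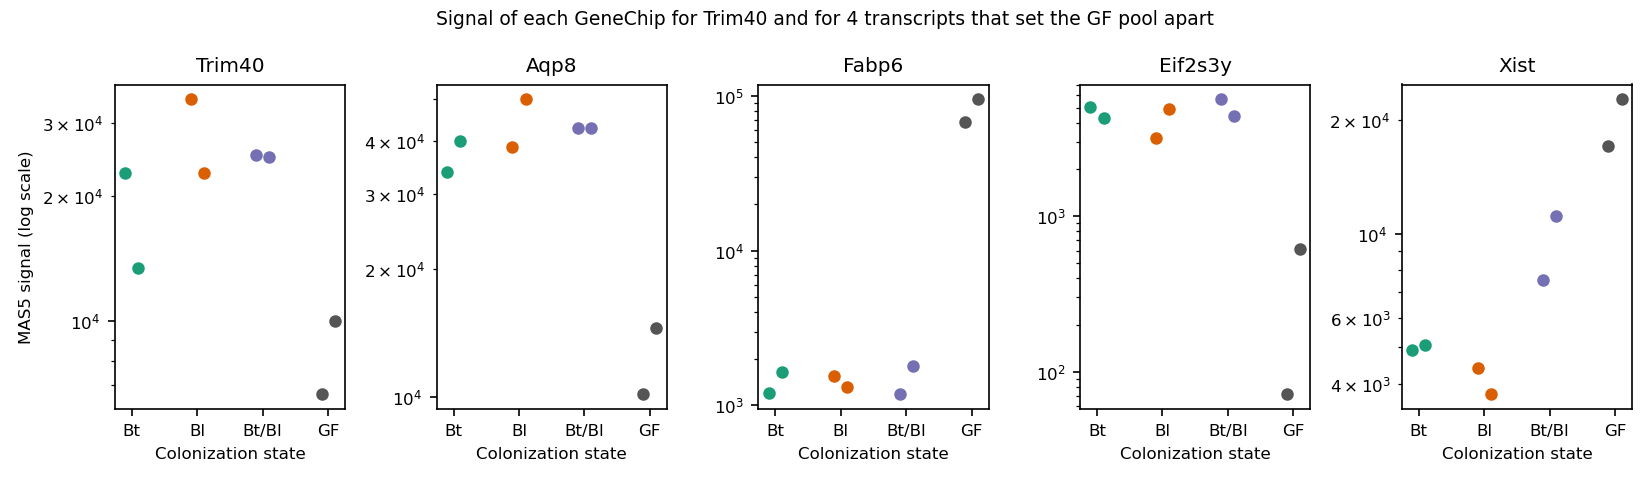
MAS5 signal (log axis, scaled separately for each transcript) of Trim40 and of Aqp8, Fabp6, Eif2s3y and Xist in the Bt, Bl, Bt/Bl and GF states; each point is 1 GeneChip. The GF points of Trim40 (6650.8 and 10007.3) are below all colonized points, as are those of Aqp8 and Eif2s3y, and the GF points of Fabp6 and Xist are above all colonized points.

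The other gasdermins gave no call. Of 6 genes with a probe set, 5 were tested, and none passed in limma in any of the 6 comparisons. With each gene read by its brightest tested probe set, 1 was higher at an unadjusted p under 0.05 in each comparison with GF. None was so between colonized states. Gsdma, Gsdma2 and Gsdme also had dimmer tested probe sets, which this count leaves out. Over all probe sets tested, 7.39% to 11.9% had an unadjusted p under 0.05 in a comparison, in either direction, which is the background for this count and for those of the lists that follow. Gsdme, the gasdermin cut by caspase-3, read 2113.0 and 2088.1 in Bt/Bl, against 1921.9 and 1862.9 in GF (log2 fold change 0.15 ± 0.46, adjusted p = 0.990). The Gsdmc-like pseudogene Gsdmcl-ps read 1851.0 and 1532.6 in Bt/Bl, against 130.8 and 876.7 in GF (2.24 ± 0.82, adjusted p = 0.528). Gsdmcl2, which lies between Gsdmc3 and Gsdmc4, read 694.1 and 1309.9 in Bt/Bl, against 827.1 and 759.1 in GF (0.27 ± 1.16, adjusted p = 0.998).

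The machinery that activates gasdermins did not pass the test in any comparison. Of the inflammasome sensors and adaptor, 8 genes were tested and none was called, with at most 1 gene at an unadjusted p under 0.05 in a comparison. Pycard, the adaptor that links sensors to caspase-1, read 100558 and 99912 in Bt/Bl, against 105461 and 106941 in GF (log2 fold change -0.08 ± 0.22, adjusted p = 0.985). Nlrp6, a sensor of the intestinal epithelium, read 28948.7 and 31897.2 in Bt/Bl, against 33388.8 and 29966.2 in GF (-0.06 ± 0.25, adjusted p = 0.998). The proteases that cut gasdermins gave 5 tested genes and no call, with at most 1 at an unadjusted p under 0.05. Casp1, which cuts Gsdmd, read 19604.2 and 22679.0 in Bt/Bl, against 20270.9 and 25743.9 in GF (-0.12 ± 0.25, adjusted p = 0.979). Casp8, which can cut Gsdmd and, in human cells, GSDMC, read 7749.2 and 6262.5 in Bt/Bl, against 2841.2 and 5286.6 in GF (0.85 ± 0.39, adjusted p = 0.663). Both Casp8 values of Bt/Bl were above both of GF, both Pycard values were below both of GF, and those of Nlrp6 and Casp1 overlapped.

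Of the pyroptosis regulators and released cytokines, 8 genes were tested and none was called, with at most 1 at an unadjusted p under 0.05 in a comparison. Il18, the cytokine matured by caspase-1, read 10119.4 and 9485.8 in Bt/Bl, against 8865.6 and 3776.3 in GF (log2 fold change 0.76 ± 0.36, adjusted p = 0.681). The ESCRT-III proteins remove gasdermin pores from the membrane, and none of 13 tested genes was called, with up to 3 at an unadjusted p under 0.05. The ESCRT-III medians against GF were log2 fold changes of -0.57 (Bt), -0.48 (Bl) and -0.01 (Bt/Bl), beside 0.02, 0.05 and 0.01 over all probe sets tested. Chmp4b, the main filament subunit, read 239773 and 176796 in Bt, against 265281 and 232231 in GF (-0.27 ± 0.30, adjusted p = 0.831).

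Trim40 was not accompanied by a call in its own family. Of 37 other Trim genes with a probe set, 33 were tested and none was called in any comparison, with at most 5 at an unadjusted p under 0.05 in 1 direction. The median of these genes in Bt/Bl against GF was a log2 fold change of 0.17, beside 0.01 over all probe sets tested. The neighbors of Trim40 were chosen for their position after their values were seen. Trim15 had Bt values of 7591.2 and 8847.2, Bl values of 8246.9 and 5881.6 and Bt/Bl values of 10752.7 and 10659.6, against 4094.0 and 5353.5 in GF. All 6 colonized values of Trim15 were above both GF values, as in 4.40% of all probe sets tested. The largest difference of Trim15, 1.19 ± 0.27 in Bt/Bl against GF, had an adjusted p of 0.144 in limma. Trim31 read 66191.5 and 56750.1 in Bt/Bl, against 55485.7 and 60641.5 in GF (0.08 ± 0.21, adjusted p = 0.985), and Trim10 read 594.4 and 522.3 in Bt/Bl, against 591.6 and 445.4 in GF (0.12 ± 0.88, adjusted p = 1.0). The ranges of Trim31 and Trim10 overlapped between these states. Of 10 tested genes of RNA sensing and the NF-kappaB pathway, on which TRIM40 is known to act in human cells, none was called, with at most 2 at an unadjusted p under 0.05 in 1 direction.

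Of the pathway lists, that of the interleukin-4 and interleukin-13 response was the only 1 with calls, and Clca1 of this list is also among the goblet cell markers. Retnlb, a goblet cell protein that binds bacteria, was higher against GF in the Bt pool (log2 fold change 1.37 ± 0.22, adjusted p = 0.0134), the Bl pool (1.41 ± 0.22, adjusted p = 0.0136) and the Bt/Bl pool (1.52 ± 0.22, adjusted p = 0.00552). Its Bt values were 80494.3 and 89551.4, its Bl values 75687.3 and 100721 and its Bt/Bl values 96333.3 and 91537.2, against 31408.6 and 34152.5 in GF. Retnlb differed by 0.04 ± 0.22 between Bl and Bt (adjusted p = 0.965), where Gsdmc2 differed by 1.40.

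Ang4, an antimicrobial ribonuclease of the gut epithelium, and Clca1, a protease of goblet cell mucus, were highest in the Bl pool, as Gsdmc2 was. The list as a whole was not higher in Bl than in Bt. Its median log2 fold change was 0.24 in Bt against GF, 0.24 in Bl against GF and -0.01 in Bl against Bt. Over all probe sets tested these medians were 0.02, 0.05 and 0.01. The part of these cytokines in the Gsdmc2 values was not tested. Ang4 read 46895.0 and 40107.1 in Bl, against 3817.9 and 4280.0 in GF (10.7-fold, log2 fold change 3.42 ± 0.24, adjusted p = 1.96e-06). It was 7.19-fold higher in Bl than in Bt, where it read 6570.2 and 5534.8 (adjusted p = 2.57e-05). Clca1 read 85224.9 and 78137.9 in Bl, against 33546.9 and 35967.7 in GF (1.23 ± 0.20, adjusted p = 0.0194), and 36004.1 and 36349.2 in Bt (1.17 ± 0.20, adjusted p = 0.0746). In Bt/Bl, Ang4 read 9287.4 and 8911.8, lower than in Bl (-2.25 ± 0.24, adjusted p = 0.000394). Clca1 read 37097.9 and 41466.8 in Bt/Bl, below both Bl values (-1.06 ± 0.20, adjusted p = 0.108). The receptor subunit Il13ra1 read 11587.4 and 9202.0 in Bt/Bl, against 8162.2 and 7834.4 in GF (0.37 ± 0.24, adjusted p = 0.834). Stat6 itself read 2007.3 and 1077.7 in Bt/Bl, against 204.2 and 1300.1 in GF (1.51 ± 1.0, adjusted p = 0.834). Of the 9 tested genes, the number called was 1 in Bt against GF, 3 in Bl against GF, 1 in Bt/Bl against GF, 0 in Bt/Bl against Bt (1 at an unadjusted p under 0.05), 1 in Bt/Bl against Bl and 1 in Bl against Bt. All were higher in the first state but Ang4 in Bt/Bl against Bl. Over all probe sets tested, the shares called in these comparisons were 0.169%, 0.137%, 0.197%, 0.0483%, 0.0563% and 0.0442%, and 10.5% had an unadjusted p under 0.05 in Bt/Bl against Bt.

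The probe sets of other genes with the profile most like each member were found by the root mean square difference of log2 signals over the 8 GeneChips, each profile centred on its own mean. The points share the same 8 hybridizations, and no p is given. For Gsdmc2 these were St3gal1, a sialyltransferase (0.242), 1700094D03Rik (0.247), E130317F20Rik (0.263), 4930548H24Rik (0.263) and Nars2, a mitochondrial asparaginyl-tRNA synthetase (0.276). For Trim40 they were Capn5, a calcium-dependent protease (0.188), Rbm41, an RNA-binding protein (0.202), Apip, an enzyme of methionine salvage (0.255), Azgp1, a zinc-binding glycoprotein (0.262), and Zbtb10, a zinc finger protein (0.275). For Gsdmd they were Cmtr1 (0.182), Nfkbil1 (0.217), Zcchc7 (0.220), Nudt3 (0.232) and Gbp2, an interferon-induced GTPase (0.240). The members were less alike than these. Gsdmc2 and Trim40 differed by 0.427, and 147 probe sets were nearer to Gsdmc2 than Trim40 was. The probe set shared with Gsdmc4 differed from the Gsdmc2 probe set by 0.448 and the one shared with Gsdmc by 0.521, although all 3 are annotated to Gsdmc2. Gsdmd differed from Gsdmc2 by 0.845 and from Trim40 by 0.847.

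**Figure D4:**
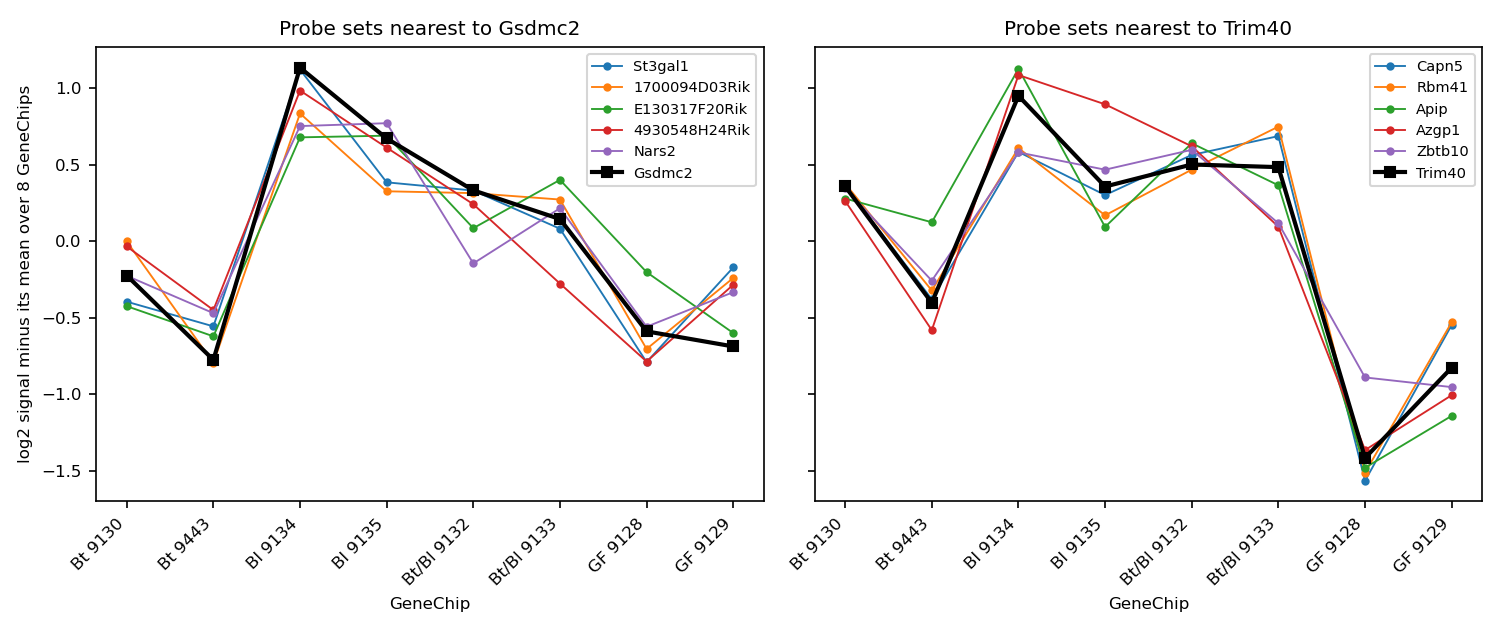
Log2 signal minus its mean over the 8 GeneChips (vertical axis) on each GeneChip (horizontal axis, named by state and GeneChip number) for Gsdmc2 and Trim40 (black) and the 5 probe sets nearest to each (colors). The nearest lines differ from Gsdmc2 by 0.242 to 0.276 and from Trim40 by 0.188 to 0.275 (root mean square), and the Trim40 lines are lowest on the 2 GF GeneChips.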

How the data were processed

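The authors amplified pooled RNA, hybridized it to MOE430 2.0 GeneChips and deposited MAS5 signal values, which are linear, scaled to 2% trimmed means of 1499.3 to 1499.5 and without detection calls. The number of hybridizations, 2 per state, limits the precision. Gene symbols came from the platform annotation: 34958 of 45101 probe sets had 1 symbol, 932 several and 9211 none listed. Signals under the 25th percentile of the table (144.7) were raised to it. Probe sets were tested where both GeneChips of a state exceeded the median (583.1), which left 24865 after control probe sets were removed, all 5 members among them. On the log2 scale, limma 3.58.1 in R 4.3.3 (lmFit, eBayes with an intensity trend, 4 residual degrees of freedom) was fitted to all 8 GeneChips, with Benjamini-Hochberg adjustment per comparison and a threshold of 0.05. The script was tested on simulated data. Alternatives changed the scaling, floor, filter, spread model or GeneChips. All members were named, and of each list the called genes and up to 4 bright ones. A listed gene was represented by its brightest tested probe set. Members and lists were chosen with earlier results of these data known. Deposited glycan GeneChip signals held no member probe set and were not used here. Promoters came from RefSeq.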

Additional observations from a re-analysis of the deposited data

How the results depend on the processing

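Counts of member probe sets past the threshold depended on the settings. Bl against GF chose the genes, so its counts are shown as a description and support nothing: 2 with all GeneChips, 0 with median scaling, with the floor at the median, with no filter or with no intensity trend, and 1 with the filter at the 75th percentile. In Bt/Bl against GF the 1 call (Trim40) became 0 with median scaling, the floor at the median, no filter, the filter at the 75th percentile or no intensity trend. In Bl against Bt, 0 became 1 (Gsdmc2) with 75th percentile scaling or quantile normalization. Leaving out 1 GeneChip, with the lone other one assumed to vary like the rest, gave 0 to 2 calls in Bl against GF (2 only without Bl GeneChip 9135), 0 in Bt/Bl against GF and 0 to 1 in Bl against Bt. The counts of 0 in the other 3 comparisons did not move. Signs turned in 13 of 525 refitted log2 differences, none of them past the threshold. In Bt/Bl against Bl, the probe set shared by Gsdmc2 and Gsdmc gave -0.12 with 75th percentile scaling, -0.09 with quantile normalization and -0.61 to 0.65 with 1 GeneChip left out, and Gsdmd gave -0.10 with 75th percentile scaling and -0.25 to 0.34 with 1 left out. The probe set shared with Gsdmc4 ran from -0.34 to 0.09 and Trim40 from -0.46 to 0.14 in that comparison. Gsdmd ran from -0.44 to 1.41 in Bt against GF, -0.98 to 0.87 in Bt/Bl against Bt and -1.02 to 0.83 in Bl against Bt, and Gsdmc2 from -0.14 to 0.41 in Bt against GF. The causes were not tested. With 75th percentile scaling, the median of all probe sets was 0.18 in Bl against GF, where it was 0.05 as deposited. In Bt/Bl against Bl it was -0.18, where it was -0.04 as deposited. No paired analysis was possible because GeneChip numbers are not shared between states. With 1 pool per state, no spread between mice could be measured.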
